A study of Mus musculus with 6 samples.

Results

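Genes that are switched on by ERK signalling and whose products hold that signalling back were followed in Setd5+/- and WT neural stem cells (NSCs) grown at 21% O2. They were 4 MAP kinase phosphatases (Dusp1, Dusp4, Dusp5 and Dusp6), 3 Sprouty genes (Spry1, Spry2 and Spry4), 2 Spred genes (Spred1 and Spred2) and Etv5, a transcription factor gene read as a marker of ERK output. The 10 genes were taken by symbol from the deposited table, which lists 53110 genes, and 10 of the 10 passed a filter of at least 10 normalized counts on average over both genotypes, which 16266 genes of the table passed in all. A normalized count is the number of reads on a gene divided by a size factor of the sample. The NSCs came from the embryonic mouse cortex and grew attached to Matrigel in a medium that held 10 ng/ml bFGF, 10 ng/ml EGF and heparin in both genotypes, so that the growth factors that drive ERK were given to WT and mutant cells alike. Setd5 codes for a chromatin protein of the SET domain family, and 1 of its 2 alleles had been disrupted with CRISPR-Cas9 in the Setd5+/- cells. The mutant samples carry the name of a single clone, A3, in the deposited column names, and clone and genotype cannot be told apart. The index and the lane in those names also differ between the WT and the mutant samples, so that neither can be told apart from genotype.

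ERK is the last kinase of a relay that runs from growth factor receptors through Ras, Raf and MEK. Cells in which ERK is active transcribe genes for its own brakes: dual specificity phosphatases remove the phosphates from ERK, Sprouty proteins act between the receptor and Raf, and Spred proteins bring the Ras inhibitor neurofibromin to the membrane. In the embryonic forebrain, FGF signalling is known to induce Sprouty, Dusp6 and Etv genes, and their transcripts are widely used as readouts of the pathway.

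For 3 samples per genotype, 6 in all, the reads counted on genes came to between 9995980 and 10004948 per sample in WT and between 7143309 and 7146147 in Setd5+/- NSCs. The 3 samples of a genotype differed by less than the sampling noise once the 2 reads of a pair were taken as 1 observation, with a chi-square of read pairs per degree of freedom of 0.958 to 0.981 within a genotype and of 31.7 to 31.9 between genotypes, and they share an index and a lane in the column names. They were therefore counted as parts of 1 library, and n is 1 per genotype. No p-value is given for this reason, and each ratio has an exact 95% interval that covers counting error only. A gene was called where its ratio was past 1.5-fold, and the number of called genes in the set was read against the share of all 16266 genes past the same fold. Setd5 itself had 2498, 2749 and 2780 normalized counts in the WT samples, against 2151, 1990 and 2055 in the Setd5+/- samples, which is 77.2% of the WT mean (log2 ratio −0.37, interval −0.44 to −0.30). The libraries also differed in cell type markers, and single genes could carry the sum of a list. The genes named for these lists, other than those at 0, were chosen after their values had been seen. Over all tested genes, 15.8% were at least 1.5-fold lower in the mutant and 19.9% higher. Of 8 neural stem cell markers, 2 were at least 1.5-fold lower and 1 higher in the mutant, with a median log2 ratio of −0.09. Their sum was 73571 to 73755 in the WT samples, against 53106 to 53777 in the Setd5+/- samples, and the level of Fabp7 alone was 36015 and 11489.8. Vim, the higher one, had 9095 and 13822. Of the 8 markers, 4 had a log2 ratio below 0 and 4 above it. Of 7 oligodendrocyte lineage markers, 4 were lower and 1 higher (median −0.81), and the sum was 40994 to 41786 in WT, against 23688 to 24533. Sox10 in that list had 298 and 1.59 normalized counts, and Cspg4, the higher one, had 769 and 1448. Of 5 astrocyte markers, 3 were higher and 1 lower (median 1.12), with Gfap at 17.1 and 263. Aldh1l1, the lower one, had 380 and 147. The astrocyte sum, most of it from Gja1, was 2412 to 2490 in WT, against 2722 to 2902. Of 6 neuronal markers, 4 were tested and 2 were lower, Dcx (−3.25) and Syt1 (−3.65), with 0 higher and a median of −1.81. The neuronal sum ran the other way, 10232 to 10583 in WT, against 12465 to 12591, because nearly all of it is Map2, a gene of chromosome 1 with 9983 and 12445. Rbfox3 (27 reads in WT) and Stmn2 (2 reads in WT) were at 0 in the mutant library. Of 6 forebrain markers, 4 were tested, 2 of them lower and 1 higher (median −0.56), the higher one being Dlx1 with 6 and 72 reads. The forebrain sum was 1424 to 1551 in WT, against 883 to 998, and Emx1 had 2 and 0 reads, too few for a comparison. Markers of cells from outside the neural lineage had low sums. The sum over 7 mesenchymal markers, of which 0 passed the filter, was 5.79 to 14.1 in WT and 2.38 to 14.3 in the mutant, and that over 4 endothelial markers, 1 of them tested and higher, 9.11 to 14.9 and 13.1 to 26.2. For 5 microglial markers, 2 of them tested and both lower, it was 117 to 158 and 59.6 to 90.5, with Ptprc and Cx3cr1 at 0 in both libraries. In bulk RNA, fewer cells of a type and less RNA per cell cannot be told apart, and the part of these marker differences in the results below was not tested. Genes of chromosome 1 had a median log2 ratio of 0.54, against −0.155 to 0.0154 on the other autosomes, and none of the genes followed here lies on chromosome 1.

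The stretches upstream of the start site are shown for 5 genes, chosen because they hold matches to short motifs of factors that act below ERK or respond to growth factors. RefSeq windows of the build GRCm38.p6, from 250 bases before to 50 bases after a start site, were used for 8 of the 10 genes, and Dusp4 and Spry4 are not among them. The 250 bases before the start site are printed 5′ to 3′ along the gene, with each match in capitals. They lie at chr17:26508473-26508722 (minus strand) for Dusp1, chr19:53528895-53529144 (plus strand) for Dusp5, chr10:99262981-99263230 (plus strand) for Dusp6, chr14:105896820-105897069 (minus strand) for Spry2 and chr16:22438369-22438618 (minus strand) for Etv5.
Dusp1: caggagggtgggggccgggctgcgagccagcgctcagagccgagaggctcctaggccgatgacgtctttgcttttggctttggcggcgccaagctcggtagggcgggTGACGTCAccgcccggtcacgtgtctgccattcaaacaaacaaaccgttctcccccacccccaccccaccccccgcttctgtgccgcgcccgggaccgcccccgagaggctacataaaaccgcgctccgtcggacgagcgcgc
Dusp5: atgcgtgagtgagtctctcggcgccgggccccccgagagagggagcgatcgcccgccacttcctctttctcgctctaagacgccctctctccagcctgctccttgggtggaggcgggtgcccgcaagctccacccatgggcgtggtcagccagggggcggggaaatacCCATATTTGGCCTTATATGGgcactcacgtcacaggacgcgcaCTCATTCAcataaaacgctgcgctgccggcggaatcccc
Dusp6: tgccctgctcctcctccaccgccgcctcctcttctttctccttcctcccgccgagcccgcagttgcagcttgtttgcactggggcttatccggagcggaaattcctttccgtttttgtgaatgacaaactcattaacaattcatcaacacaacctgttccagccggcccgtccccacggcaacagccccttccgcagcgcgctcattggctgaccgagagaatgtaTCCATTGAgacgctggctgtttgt
Spry2: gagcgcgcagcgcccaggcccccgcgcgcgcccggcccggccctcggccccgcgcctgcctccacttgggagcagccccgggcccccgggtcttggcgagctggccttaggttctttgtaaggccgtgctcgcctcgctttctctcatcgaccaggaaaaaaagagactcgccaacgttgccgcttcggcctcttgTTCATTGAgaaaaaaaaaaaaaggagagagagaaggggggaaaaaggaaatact
Etv5: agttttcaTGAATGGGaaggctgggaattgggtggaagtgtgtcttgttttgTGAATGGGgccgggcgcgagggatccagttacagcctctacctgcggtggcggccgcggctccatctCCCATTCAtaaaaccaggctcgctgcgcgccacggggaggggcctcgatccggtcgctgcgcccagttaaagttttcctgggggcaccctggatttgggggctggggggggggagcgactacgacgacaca

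The windows were searched on both strands for 6 motifs. In the Dusp5 window, 2 CArG boxes, the element bound by serum response factor, stand directly side by side at −82 and −72 from the start site (CCATATTTGG and CCTTATATGG). A CArG box is found in 1.63% of all 32851 windows in the table. The Dusp1 window holds the cyclic AMP response element TGACGTCA at −143, present in 1.79% of all windows. The site of Capicua (CIC), a repressor that ERK inactivates, was searched in 8 spellings, TGAATGAA, TGAATGAG, TGAATGGA, TGAATGGG, TCAATGAA, TCAATGAG, TCAATGGA and TCAATGGG. It was found in 4 of the 8 genes and in 7.02% of all windows. Etv5 has it 3 times at 1 of its 2 start sites, Dusp6 has it at −24 and again 1 base after the start site, and Dusp5 and Spry2 have it once each. This search followed one with fewer spellings, which had found none, and was widened after TGAATGGG had been noticed in the Etv5 window. No match to the AP-1 site TGANTCA (7.81% of all windows), the ETS site CCGGAAGT (3.89%) or the TATA box TATAAA (13.6%) was found in the 8 genes. These sites were searched only as spelled here, with N for any base, and other forms of them were not searched. The windows of Spry1, Spred1 and Spred2 hold none of the 6 motifs. The Spred1 window ends at 117121120, before the start of the gene in GENCODE M21 at 117121374. No match overlapped one to another motif. These are matches of letters in short windows and were not tested as binding sites.

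Of the 10 genes, 7 were at least 1.5-fold lower in Setd5+/- NSCs, where 15.8% of all tested genes were. These were Dusp1, Dusp4, Dusp6, Spry1, Spry2, Spry4 and Spred2, and the 7 were also at least 2-fold lower, against 6.34% of all tested genes. Of them, 6 were at least 5-fold lower, against 1.52% of all tested genes, Spred2 being the exception. Dusp5 was higher past 1.5-fold (19.9% of all tested genes) and past 2-fold (10.6%), and Spred1 and Etv5 stayed within 1.5-fold. The median log2 ratio of the set was −2.64, beside −0.02 over all tested genes. The values of the 3 WT and the 3 Setd5+/- samples did not overlap in 10 of the 10 genes, as in 65.3% of all tested genes. With parts of 1 library on each side, this shows only that the 2 libraries differ by more than their counting noise.

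**Figure D1:**
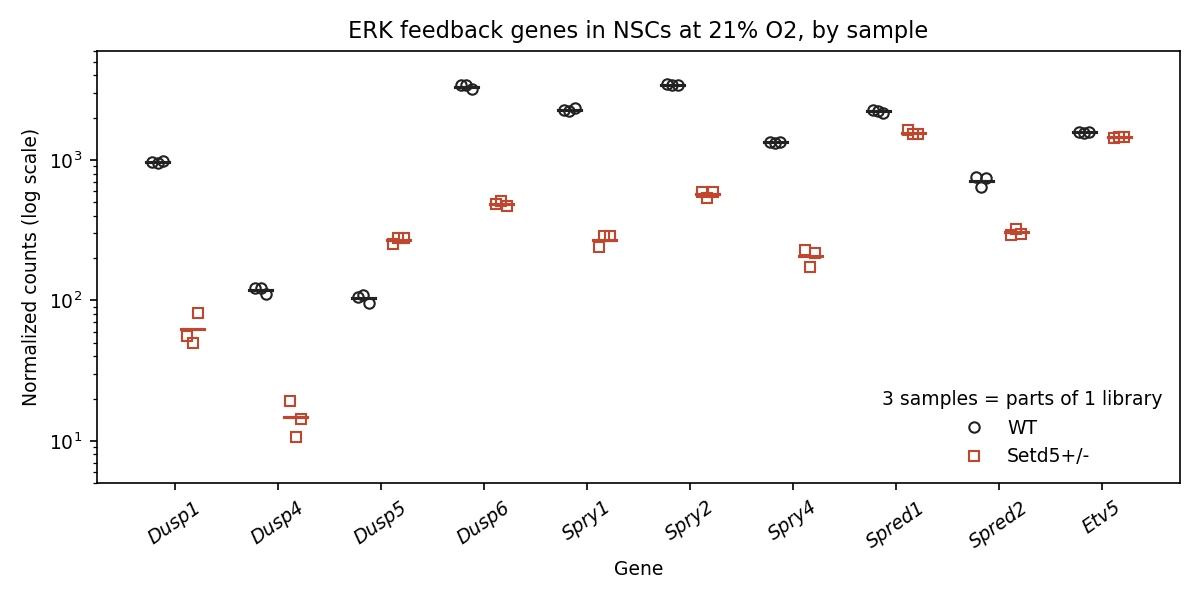
Normalized counts of the 10 genes in each sample, on a log axis, with WT as circles and Setd5+/- as squares and a line at the mean of the 3 samples, which are parts of 1 library. The squares lie below the circles for 9 genes and above them for Dusp5.

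Among the phosphatases, Dusp1 and Dusp6 carried most of the WT signal and were both far lower in the mutant library. Dusp1 (ENSMUSG00000024190, chromosome 17, 26505590 to 26562128, minus strand) codes for a nuclear phosphatase that acts on p38 and JNK as well as on ERK and is known as an immediate early gene. Its normalized counts were 969, 958 and 985 in the WT samples, against 56.0, 50.0 and 81.0 in the Setd5+/- samples. The Setd5+/- library was thus 15.6-fold lower (interval 12.5 to 19.9, log2 ratio −3.96), the lowest ratio of the set, and 0.547% of all tested genes had a lower one. Dusp6 (ENSMUSG00000019960, chromosome 10, 99263231 to 99267489, plus strand), the cytoplasmic phosphatase with a strong preference for ERK, had 3396, 3404 and 3209 normalized counts in WT against 485, 511 and 472 in Setd5+/- NSCs. The difference was 6.82-fold (6.28 to 7.42, log2 ratio −2.77) and rests on 12085 and 1232 reads, so that its interval is among the narrow ones. Dusp4 (ENSMUSG00000031530, chromosome 8, 34807297 to 34819894, plus strand), another nuclear phosphatase induced by ERK, was expressed at a low level. It had 124, 122 and 111 normalized counts in the WT samples, against 19.1, 10.7 and 14.3 in the Setd5+/- samples, 8.10-fold lower (5.15 to 14.3, log2 ratio −3.02). Only 37 reads stand behind the Setd5+/- value of Dusp4, and the wide interval follows from that.

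Dusp5 went the other way. Dusp5 (ENSMUSG00000034765, chromosome 19, 53529109 to 53542431, plus strand) codes for a nuclear phosphatase that binds and dephosphorylates ERK, and among the promoters searched it is the one with the paired CArG boxes shown above. Whether these boxes are bound in these cells, or bear on the level of Dusp5, was not tested. The WT samples had 106, 109 and 96.1 normalized counts, and the mutant samples 253, 276 and 279. Its level was 2.59-fold higher in the Setd5+/- library (2.16 to 3.12, log2 ratio 1.38), and 6.51% of all tested genes had a higher ratio. Dusp5 and Dusp4 stood at nearly the same level per length in WT, at 42.0 and 43.4 normalized counts per kb of exon, and at 109 and 5.36 in Setd5+/- NSCs. The summed level of the 4 phosphatases per kb was 1444 in WT against 289 in the mutant, 4.99-fold lower. Dusp6 made up 73.8% of that sum in WT and 54.0% in Setd5+/- NSCs, whereas the share of Dusp5 was 2.91% and 37.6% and that of Dusp1 was 20.3% and 6.51%.

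The Sprouty genes were lower in the Setd5+/- library in all 3 cases, by folds that lay near each other. Spry2 (ENSMUSG00000022114, chromosome 14, 105891947 to 105896819, minus strand) had 3477, 3413 and 3429 normalized counts in WT against 588, 535 and 592 in Setd5+/- NSCs. This is 6.02-fold lower (5.57 to 6.51, log2 ratio −2.59). For Spry1 (ENSMUSG00000037211, chromosome 3, 37639947 to 37644598, plus strand) the values were 2257, 2217 and 2332 in WT and 238, 288 and 286 in the mutant. Spry1 was 8.38-fold lower (7.50 to 9.38, log2 ratio −3.07), and its interval does not meet that of Spry2 or of Spry4. Spry4 (ENSMUSG00000024427, chromosome 18, 38586247 to 38601415, minus strand), the least expressed of the 3, had 1350.0, 1322 and 1337 normalized counts in WT against 230.0, 174 and 219 in Setd5+/- NSCs. It was 6.43-fold lower (5.65 to 7.32, log2 ratio −2.69), with an interval that meets that of Spry2. The sum of the Sprouty levels per kb was 2710 in WT and 411 in Setd5+/- NSCs, 6.60-fold lower. Its makeup changed less than that of the phosphatases, since Spry2 held 60.8% and 66.7% of it, Spry1 28.8% and 22.7%, and Spry4 10.4% and 10.6%.

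The Spred genes differed less between the libraries. Spred2 (ENSMUSG00000045671, chromosome 11, 19924375 to 20024026, plus strand) had 755, 642 and 743 normalized counts in the WT samples, against 293, 324 and 298 in the Setd5+/- samples, 2.34-fold lower (2.09 to 2.63, log2 ratio −1.23). Spred1 (ENSMUSG00000027351, chromosome 2, 117121374 to 117182279, plus strand), the more expressed of the pair and the one mutated in Legius syndrome, had 2266, 2247 and 2155 in WT and 1624, 1521 and 1533 in Setd5+/- NSCs. The ratio was 1.43-fold (1.35 to 1.505, log2 ratio −0.51), just inside the 1.5-fold limit, and 18.4% of all tested genes had a lower one. Per kb, Spred1 made up 68.0% of the sum of the pair in WT and 77.7% in the mutant, and the sum was 1.63-fold lower.

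Etv5 (ENSMUSG00000013089, chromosome 16, 22381309 to 22439719, minus strand), an ETS factor of the PEA3 group, had nearly the same level in both libraries. Its normalized counts were 1583, 1563 and 1588 in WT and 1423, 1470 and 1456 in Setd5+/- NSCs. The ratio was 1.09-fold lower (1.03 to 1.16, log2 ratio −0.12), and 42.3% of all tested genes had a lower ratio, so that Etv5 lay in the middle of the distribution. The printed Etv5 window held 3 matches to the CIC site, and Etv5 had the ratio nearest to no difference in the set. Whether that start site is used in these cells, and whether the matches are bound, was not tested.

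**Figure D2:**
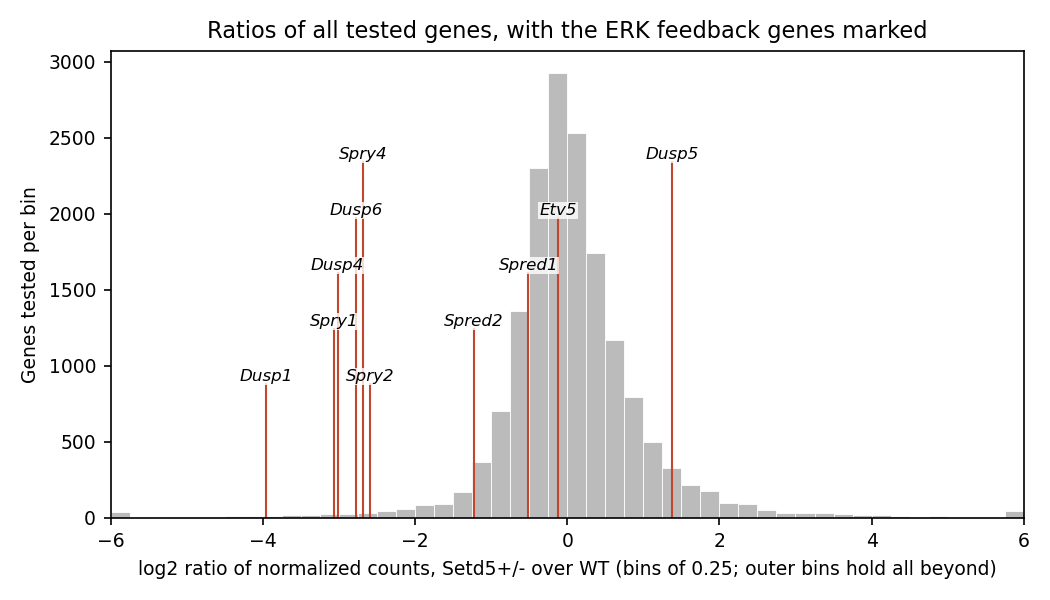
Histogram of the log2 ratio, Setd5+/- over WT, of the 16266 tested genes in bins of 0.25, the outer bins holding all genes beyond. Red lines mark the 10 genes, of which 6 lie in the left tail between −3.96 and −2.59, while Spred1 and Etv5 stand within the main peak and Dusp5 on its right flank.

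Levels were compared between genes per kb of exon, using the exon length of each gene in GENCODE M21. The Dusp1 entry, on the minus strand, reaches to 26562128, past the start site of the printed window (26508473 to 26508722), and overlaps an exon of Ergic1. How far this lowers the level of Dusp1 per kb and its share of the phosphatase sum was not tested. In WT the order ran from Spry2 (1648 normalized counts per kb) over Dusp6 (1065), Spry1 (781), Etv5 (385), Spred1 (328), Dusp1 (293), Spry4 (281) and Spred2 (154) to Dusp4 (43.4) and Dusp5 (42.0). Spry2 thus stood above 98.7% of all tested genes and Dusp6 above 97.8%. The ranges of neighbours in this order did not overlap over the 3 samples, with the exception of Dusp4 and Dusp5. The samples are parts of 1 library, so these ranges, and those of the mutant order below, cover counting noise only. Spread of the order between cultures was not measured. In Setd5+/- NSCs the order began with Etv5 (353) and went on with Spry2 (274), Spred1 (229.9), Dusp6 (156), Dusp5 (109), Spry1 (93.2), Spred2 (66.0), Spry4 (43.7), Dusp1 (18.8) and Dusp4 (5.36), and there no neighbours overlapped. Dusp5 moved from the last to the fifth place. Dusp1 stood above 89.6% of the tested genes in WT and above 20.7% in the mutant.

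**Figure D3:**
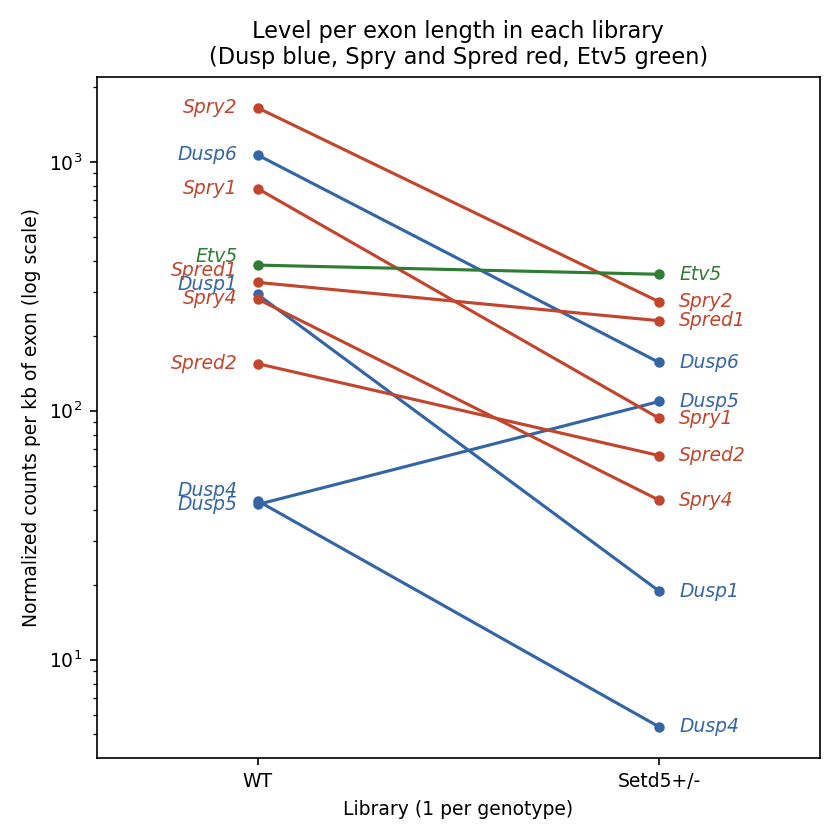
Mean normalized counts per kb of exon, on a log axis, in the WT and the Setd5+/- library, with a line for each of the 10 genes (Dusp in blue, Spry and Spred in red, Etv5 in green). The lines of Etv5 (385 and 353) and Spred1 (328 and 229.9) are nearly flat, that of Dusp5 rises from 42.0 to 109 and the others fall.

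The genes lie on 10 different chromosomes, and the genes beside them were compared with them. For each gene the 10 nearest tested protein-coding genes were taken, 5 on each side. Their median log2 ratios lay between −0.22 (beside Spred1) and 0.42 (beside Dusp1). Single neighbours lay further out, down to −3.94 beside Etv5 and −3.79 beside Spry2 and up to 2.33 beside Spred1. The neighbours of Dusp6 had a median of 0.19 and 0 of the 10 were at least 1.5-fold lower, and those of Dusp1 had 0 of 10 lower and 4 of 10 higher. Next to Spry2, where the median was −0.21, 4 of the 10 neighbours were at least 1.5-fold lower. Beside Dusp4, Spry1 and Etv5, 3 of 10 were lower in each case, and beside Dusp5, Spry4, Spred1 and Spred2, 1 of 10. Dusp4, Dusp6 and Spry4 each had 3 of 10 neighbours that were at least 1.5-fold higher. Over all tested genes, 15.8% were lower and 19.9% higher past the same fold. Dusp5, higher in Setd5+/- NSCs, had neighbours with a median of −0.15.

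**Figure D4:**
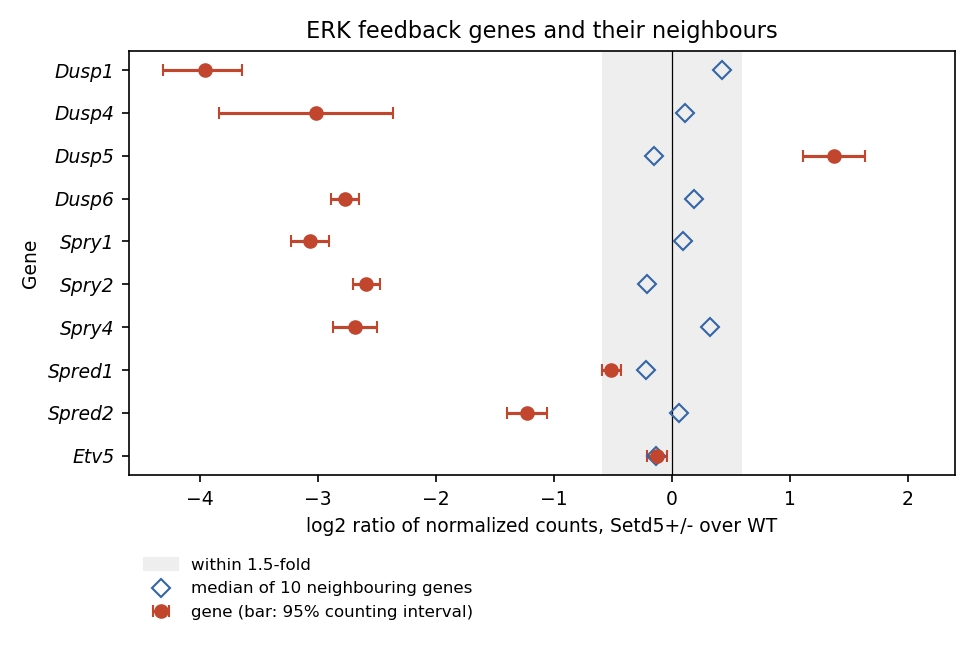
The log2 ratio, Setd5+/- over WT, of each gene (red points, with 95% counting intervals) and the median over its 10 nearest tested protein-coding genes (open blue diamonds), with the range within 1.5-fold in grey. The diamonds lie between −0.22 and 0.42, while 8 of the 10 red points lie outside the grey range.

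Some reads could not be assigned with certainty, because the sources used here do not say whether strand was used in the counting. The antisense transcript Gm42922 shares 577 bases with Spry1. Its reads numbered 644 in WT against 63 in the mutant (log2 ratio −2.83), close to the ratio of Spry1, for which 8218 and 682 reads were counted. Ergic1, which overlaps an exon of Dusp1 on the other strand, had a log2 ratio of 0.32. The antisense transcript AC137853.2 shares 547 bases with Dusp5. A processed pseudogene, Gm4798, matches Etv5 over 1700 bases at 98.6% identity, and Gm14612 matches Spred2 over 575 bases at 92.7%. A transcript of Vps35, a gene of chromosome 8, matches Spred1 over 169 bases in reverse orientation at 95.3% identity. How far such shared stretches moved reads between genes was not tested.

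Other genes with related products were listed alongside. Of 6 further MAP kinase phosphatase genes, 4 passed the filter, of which 2 were at least 1.5-fold lower and 0 higher (median log2 ratio −0.38). Over all tested genes, 15.8% were lower and 19.9% higher past this fold. Dusp7, the closest relative of Dusp6 in kind, a cytoplasmic phosphatase of ERK, had 410 normalized counts in WT against 215 in Setd5+/- NSCs (log2 ratio −0.93, interval −1.14 to −0.73). Dusp8, which acts mainly on JNK and p38, had 95.3 and 21.0 (−2.18, −2.86 to −1.60). Dusp10, on chromosome 1, with 57.7 and 67.5, and Dusp16, with 240.2 and 272, both phosphatases of the stress kinases, stayed within 1.5-fold. Dusp2 (20 and 7 reads) and Dusp9 (4 and 0 reads) did not pass the filter. Spred3 went from 727 normalized counts in WT to 437 in the mutant (−0.73, −0.88 to −0.59), and Spry3 was not analysed here. Of the other PEA3 factors, Etv4 was 3.43-fold lower, with 3038 and 887 normalized counts (−1.78, −1.87 to −1.68), whereas Etv1 had 731 and 579 (−0.34).

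Inhibitors that act at the receptors were not among the lower genes. Il17rd (Sef), which belongs to the genes induced along with Sprouty by FGF, had 480 normalized counts in WT against 792 in Setd5+/- NSCs (log2 ratio 0.72, interval 0.59 to 0.86). Errfi1 (Mig6), an inhibitor of the EGF receptor, had 124 and 249 (1.01, 0.76 to 1.26). Lrig1, which promotes the degradation of that receptor, had 6076 and 8823 (0.54). Of these 3 genes, 2 were at least 1.5-fold higher and 0 lower. Among 6 other genes that follow ERK activity, 4 were at least 1.5-fold lower and 2 higher (median −0.90). Over all tested genes, 15.8% were lower and 19.9% higher past this fold, and both lists were chosen with earlier results of these data known. Myc had 919 and 224 normalized counts (−2.04, −2.22 to −1.85), and Ccnd1, the gene for cyclin D1, had 3379 and 1731 (−0.97). Ier3 had 170 and 77.8 (−1.12) and Phlda1 464 and 259 (−0.84). On the higher side, the ephrin receptor gene Epha4, on chromosome 1, had 207 and 984 (2.25). Epha2 had 11.0 and 19.1, and its interval (−0.13 to 1.72) holds no difference.

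The genes of the relay itself showed little difference between the libraries. Of 6 receptor genes, 5 were tested and 0 were past 1.5-fold in either direction (median 0.17). The EGF receptor gene Egfr had 4860 normalized counts in WT against 5450 in Setd5+/- NSCs (log2 ratio 0.17), and Erbb2 had 252 and 347 (0.46). The FGF receptor genes Fgfr1 (2685 and 2481, −0.11), Fgfr2 (266 and 358, 0.43) and Fgfr3 (2364 and 2383, 0.01) were likewise within 1.5-fold, and Fgfr4, with 11 and 16 reads, did not pass the filter. Of 8 adaptor genes 0 were lower and 1 was higher past 1.5-fold, namely Shc1 with 107 and 243 (1.18), and the lowest ratio was that of Frs3 (−0.41). Ras genes and their GTPase activating proteins (7 genes) and the kinase cascade of Raf, MEK, ERK and their scaffold (9 genes) had 0 genes past 1.5-fold. In the first list the highest ratio was 0.33 (Nras), and in the second the ratios ran from −0.43 (Ksr1) to 0.19 (Map2k1). Over all tested genes, 35.7% were past 1.5-fold in one direction or the other. These are transcript levels, and neither ERK phosphorylation nor protein was measured in these samples.

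**Figure D5:**
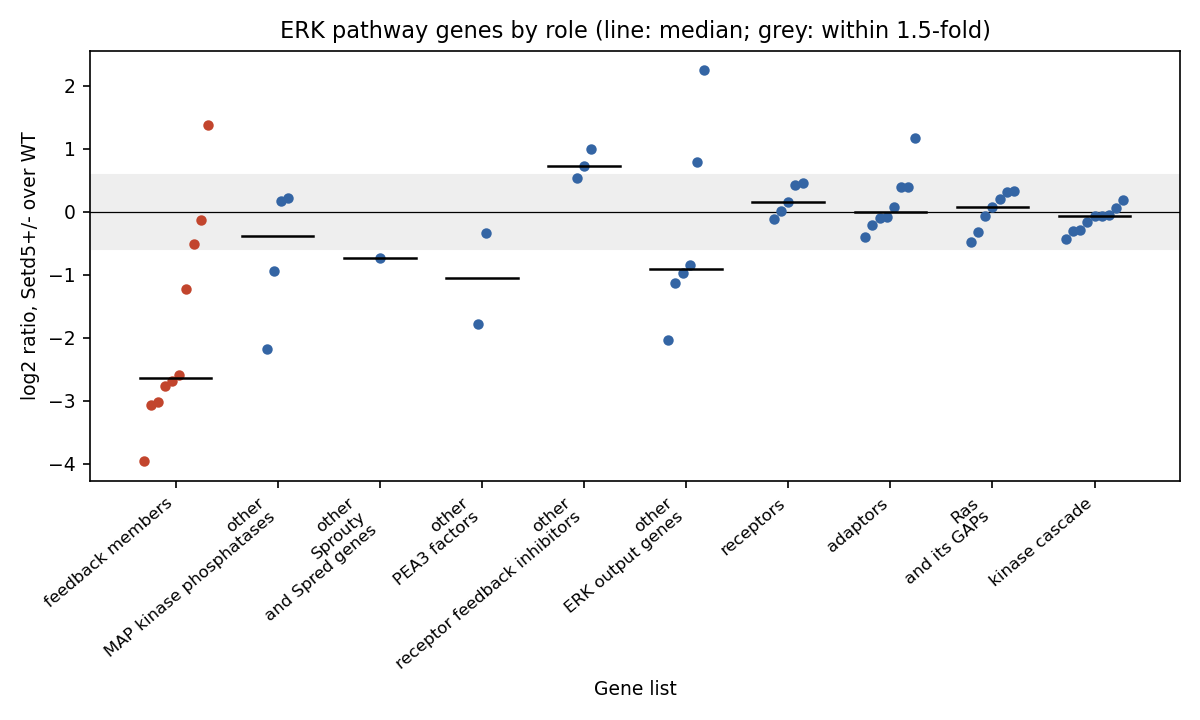
The log2 ratio, Setd5+/- over WT, of each tested gene of the ERK pathway (points), grouped by role along the horizontal axis, with the median of each list as a line and the range within 1.5-fold in grey. The feedback genes (red) have a median of −2.64, while 0 genes of the receptors, of Ras and its GAPs and of the kinase cascade leave the grey range.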

How the data were processed

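RNA-seq of NSCs at 21% O2 was used, with 3 WT samples and 3 Setd5+/- samples by their titles. The submitters' notes name Trimmomatic, Bowtie2, mm10 and DESeq2, and the program that counted reads is not given in the sources used here. The authors deposited DESeq2-normalized counts, in which many values had lost their decimal point, so that these columns are not plain numbers. The table also holds the authors' log2 fold change, its standard error, a test statistic and p-values, which were not used. Of the columns of sample values, 0 were left out. The point was placed where a value became a whole number of reads (within 0.01 reads), from the worth of 1 read in each sample, with the deposited mean deciding in 1117 genes. The deposited mean was then matched in 52438 of 52438 genes with values, and 672 listed genes had none.

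Each genotype was counted as 1 library, with 30004634 reads in WT and 21435546 in Setd5+/-. The study compares 3 against 3 samples with DESeq2, which was not done here. The log2 ratio of the mean normalized counts was given without pseudocount, with an exact 95% counting interval (conditional binomial, Clopper-Pearson) in which 2 reads make 1 observation, since reads varied 1.95 (WT) and 1.94 (Setd5+/-) times as much as their mean between samples of a genotype. PCR copies are not told apart. Restoration and interval were tested on simulated data. Positions, exon lengths and neighbours came from GENCODE M21 (GRCm38, the build also called mm10), promoters from RefSeq, and shared stretches of at least 100 bases at 90% identity or more from blastn 2.17.0. Python 3.11.15, numpy 2.4.6, scipy 1.17.1 and pandas 2.3.3 were used.

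The genes, the gene lists and the 1.5-fold limit were chosen with earlier results of these data known. All 10 genes are given in full. Of the ERK pathway lists, those of up to 6 other genes are given in full and longer ones by the genes with the largest rise and fall, of which 1 is not reported here. Lists of cell type markers are given by counts, medians and sums, with values of some single genes that were chosen after they had been seen. No gene was named for a pattern like theirs, since 2 libraries give each gene 1 ratio. The alternatives were a pseudocount of 1, 3 other scalings, a fold of 2, an interval on one side of no change, single reads in place of pairs, 2 other filters, chromosome 1 left out, only genes restored without the deposited mean, and each of the 6 samples left out.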

Additional observations from a re-analysis of the deposited data

How the results depend on the processing

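The alternatives that change the log2 ratios of the 10 genes gave 100 values, of which 0 reversed and 0 left the counting interval. Leaving out a sample only removes a part of 1 library, and the other scalings move all ratios by nearly the same small amount. Such values could hardly leave a counting interval, and they do not cover spread between cultures. With the filter raised to a mean of 100, Dusp4 was no longer tested, and of the other 9 genes 6 were lower and 1 higher, with a median of −2.59. Under every other alternative in which the genes past the limit were counted, 7 genes of the set were lower and 1 higher. With a fold of 2 in place of 1.5, the share of all tested genes was 6.345% lower and 10.57% higher. The median log2 ratio of the set was −2.634 with a pseudocount of 1, −2.681 and −2.677 with the libraries scaled to the same upper quartile or the same total of reads, and −2.595 with ratios centred on genes not on chromosome 1. Leaving out each sample in turn gave medians between −2.687 and −2.558, and ratios from −4.19 to −3.82 for Dusp1 and from −0.166 to −0.0797 for Etv5 over all alternatives. Spred1 came nearest to the limit, at −0.555. No paired analysis was possible because the 3 samples of a genotype are parts of 1 library and the ratios come from no test. Depth limits Dusp4 most, with 37 reads in the Setd5+/- library.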
